A study of Mus musculus with 12 samples.

Results

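A set of 10 genes of triglyceride handling, Dgat1, Dgat2, Gpam, Agpat2, Lpin1, Lipe, Pnpla2, Mgll, Abhd5 and Lpl, were followed through all 12 libraries of sorted C57BL/6 mouse cells. The 10 genes were taken by name, out of 38924 genes counted, and all 10 of 10 passed the filter on low counts. They and the pathway lists used below were chosen with earlier results of these data known. Counts of these genes set beside the share of all genes are therefore descriptive. The libraries formed 6 groups of 2. All mice carried the ROSAmTmG reporter, which switches a cell and its descendants from tdTomato to GFP once a Cre recombinase has acted, together with either Myf5-Cre or Ucp1-iCre. Each line gave mammary myoepithelial cells sorted at lactation day 10 (lineage-negative, CD24-positive, CD29-high) and split by GFP, and GFP-positive brown adipocytes of 8-week-old virgin females. The GFP-negative cells thus came from mice with the same Cre and reporter. GFP records past activity of the driver, not present activity. The 2 tissues also differ in lactation and reproductive state, and these cannot be told apart from cell type. The labels do not say that the libraries of a group came from separate animals, so p-values here cover the spread between libraries, which may be technical.

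Triglyceride is built on a glycerol-3-phosphate backbone by successive addition of fatty acids. Gpam (mitochondrial glycerol-3-phosphate acyltransferase) adds the first, Agpat2 makes phosphatidic acid, Lpin1 (a phosphatidic acid phosphatase) yields diacylglycerol, and Dgat1 or Dgat2 adds the last. Intracellular lipolysis runs the other way: Pnpla2 (adipose triglyceride lipase), switched on by its co-activator Abhd5, removes one fatty acid, Lipe (hormone-sensitive lipase) acts on diacylglycerol, and Mgll cleaves monoacylglycerol. Lpl, secreted and held on the capillary wall, releases fatty acids from circulating lipoproteins for uptake. Brown adipocytes store and burn triglyceride, and the lactating mammary gland takes up and re-esterifies large amounts of fatty acid, mainly in its luminal secretory cells. Myoepithelial cells are the contractile outer layer of that epithelium.

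Upstream sequence was matched for 7 of the 10 genes in RefSeq (GRCm38.p6, the same assembly as mm10). No entry was matched for Dgat1, Dgat2 or Lpl. The windows of 4 genes whose levels frame the results are shown: Agpat2 and Pnpla2, which dominated the brown adipocyte libraries, Mgll, which dominated the GFP-negative mammary libraries, and Lpin1, the phosphatase between them in the pathway. Each is the 250 bases before an annotated start, 5′ to 3′ on the gene's strand. Agpat2 lies at chr2:26604418-26604667 (minus strand), Mgll at chr6:88724162-88724411 (plus strand), Pnpla2 at chr7:141454938-141455187 (plus strand) and Lpin1 at chr12:16610967-16611216 (minus strand). Capitals mark matches, on either strand, to AGGTCA (a nuclear receptor half-site), CACGTG (an E-box) or GGGCGG (a GC box).
Agpat2: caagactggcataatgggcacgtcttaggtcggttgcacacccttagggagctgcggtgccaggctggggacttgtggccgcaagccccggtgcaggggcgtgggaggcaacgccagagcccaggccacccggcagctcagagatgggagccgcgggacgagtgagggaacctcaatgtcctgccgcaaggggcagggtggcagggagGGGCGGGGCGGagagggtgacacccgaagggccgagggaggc
Mgll: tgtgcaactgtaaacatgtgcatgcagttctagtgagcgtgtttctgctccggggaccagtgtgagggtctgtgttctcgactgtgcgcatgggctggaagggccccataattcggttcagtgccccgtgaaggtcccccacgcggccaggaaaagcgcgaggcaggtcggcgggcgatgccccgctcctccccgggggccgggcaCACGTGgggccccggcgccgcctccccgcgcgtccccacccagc
Pnpla2: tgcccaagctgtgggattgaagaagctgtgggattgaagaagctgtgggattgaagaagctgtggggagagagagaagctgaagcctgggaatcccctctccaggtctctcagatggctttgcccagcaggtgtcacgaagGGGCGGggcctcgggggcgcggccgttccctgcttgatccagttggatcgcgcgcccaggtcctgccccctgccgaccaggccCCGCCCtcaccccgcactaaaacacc
Lpin1: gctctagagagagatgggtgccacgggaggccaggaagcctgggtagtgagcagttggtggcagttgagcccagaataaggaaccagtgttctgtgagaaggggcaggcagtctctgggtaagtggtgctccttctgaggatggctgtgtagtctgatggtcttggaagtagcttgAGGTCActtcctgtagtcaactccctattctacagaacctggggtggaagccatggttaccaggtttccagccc

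The GC box GGGCGG, searched on both strands as GGGCGG or CCGCCC, was present in 6 of the 10 windows of the 7 matched genes (1 each for Agpat2, Mgll, Lipe, Pnpla2, Abhd5 and Gpam) and in 32.7% of 32851 RefSeq windows of the same length. AGGTCA (or TGACCT) was in 3 of the 10 windows (Abhd5, Lpin1 and Gpam) and in 14.0% of all windows. CACGTG, its own reverse complement, was in 2 of the 10 (Mgll and Lipe) and in 6.02% of all windows. TATAAA (or TTTATA) was in 12.4% of all windows and in 0 of the 10. Some genes have more than one window because they have more than one annotated start. Overlapping matches were kept, as in the Agpat2 window, where 2 GC boxes share a base. These matches describe the letters only.

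Library totals ran from 11027738 to 32956480 counts, and the libraries held 10560 to 19794 genes with a count. The Ucp1 GFP-positive myoepithelial pair stood apart: it held the fewest genes (10909 and 10560) and its 2 libraries correlated at r = 0.681, against 0.847 to 0.988 within the other groups. Of the 8 myoepithelial markers, 7 were counted in both libraries of that group and 8 in the other mammary groups, and their summed level was 1283 to 3456 CPM (counts scaled to library size) in GFP-positive and 7969 to 14776 in GFP-negative libraries. In brown adipocytes the 3 keratins Krt5, Krt14 and Krt17 were at 0. All 7 brown adipocyte markers were counted in each brown adipocyte library, with sums of 19926 and 24861 CPM in the Myf5 line and 2673 and 8283 in the Ucp1 line. In mammary libraries they summed to 123 to 203 CPM in GFP-positive and 361 to 606 in GFP-negative cells. Ucp1 itself was at 0 in all GFP-positive myoepithelial libraries, but not in both libraries of either GFP-negative group. Milk and luminal genes summed to 11591 to 25878 CPM in GFP-positive and 42052 to 80151 in GFP-negative mammary libraries.

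**Figure D1:**
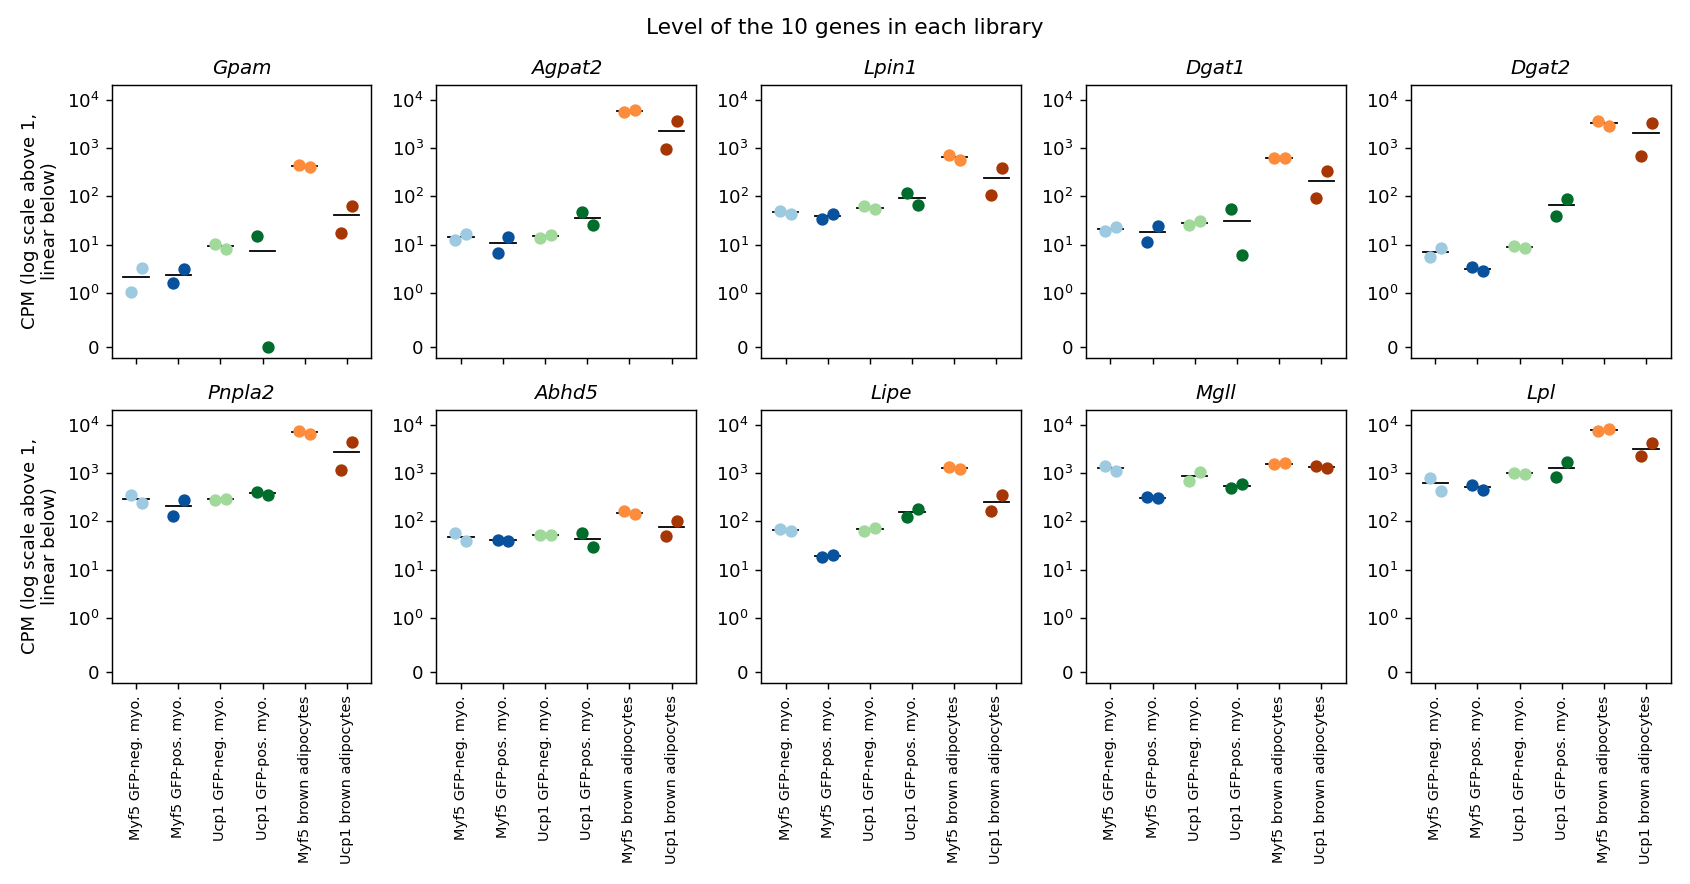
Level of each gene in every library, in CPM (log scale above 1, linear below); points are the 2 libraries of a group and the black line is their mean. All 10 genes have their highest group mean in the Myf5 brown adipocytes, and Gpam is at 0 in 1 Ucp1 GFP-positive myoepithelial library.

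All 10 genes had their highest group mean in Myf5-line brown adipocytes, and together they took 0.589% to 1.93% of all counts in brown adipocytes against 0.120% to 0.379% in mammary libraries. Among the 4 mammary groups, Ucp1 GFP-positive cells had the highest mean for 7 genes (Dgat1, Dgat2, Agpat2, Lpin1, Lipe, Pnpla2 and Lpl) and Myf5 GFP-positive cells had the lowest for 9, all but Gpam. Many of these neighbours overlapped library by library, as the values below show. CPM are scaled with TMM factors. In bulk RNA, fewer cells of a type and less RNA per cell cannot be told apart.

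Of the esterification genes, Agpat2 and Dgat2 had the widest spans. Agpat2 stood at 5513 and 5998 CPM in Myf5 brown adipocytes and at 972 and 3525 in Ucp1 brown adipocytes. In mammary cells it was at 6.85 and 14.5 CPM (Myf5 GFP-positive), 12.3 and 16.3 (Myf5 GFP-negative), 47.8 and 25.0 (Ucp1 GFP-positive) and 14.0 and 15.6 (Ucp1 GFP-negative). The Ucp1 GFP-positive pair was thus above every other mammary library, and all 8 mammary libraries were below all 4 brown adipocyte libraries.

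Dgat2, an acyltransferase found at the surface of lipid droplets, was at 3584 and 2889 CPM in Myf5 and 669 and 3315 in Ucp1 brown adipocytes. Its mammary levels were 3.42 and 2.85 CPM (Myf5 GFP-positive), 5.55 and 8.70 (Myf5 GFP-negative), 39.9 and 89.8 (Ucp1 GFP-positive) and 9.47 and 8.37 (Ucp1 GFP-negative). Here the 2 Ucp1 GFP-positive libraries again lay above the other 6, and the 2 Myf5 GFP-positive libraries below them.

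Dgat1, which makes the same product from a different protein family, did not share that order. It was at 626 and 607 CPM in Myf5 and 92.0 and 327 in Ucp1 brown adipocytes, and in mammary cells at 11.6 and 24.8 (Myf5 GFP-positive), 19.1 and 23.7 (Myf5 GFP-negative) and 25.9 and 31.1 (Ucp1 GFP-negative). The Ucp1 GFP-positive libraries held 55.0 and 6.24, the highest and the lowest mammary values, so this pair brackets every other mammary library.

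Gpam was the least abundant of the 10 in every mammary group per length. It was at 444 and 400 CPM in Myf5 and 17.3 and 64.0 in Ucp1 brown adipocytes. In mammary cells it was at 1.62 and 3.10 (Myf5 GFP-positive), 1.06 and 3.24 (Myf5 GFP-negative) and 10.4 and 8.16 (Ucp1 GFP-negative). In Ucp1 GFP-positive cells it was at 14.8 in library 1 and had 0 counts in library 2, where 3 counts would be 0.0728 CPM. Its fold changes for that group rest on a single library.

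Lpin1, also a transcriptional co-regulator, had the smallest tissue gap of the 5 esterification genes. It was at 714 and 572 CPM in Myf5 and 107 and 381 in Ucp1 brown adipocytes, and its mammary levels ran from 34.2 to 120 with a median of 52.3 over 8 libraries. The highest mammary library, Ucp1 GFP-positive library 1, lay above the lowest brown adipocyte library.

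Of the lipolysis genes, Pnpla2 was the most abundant per length in brown adipocytes. It stood at 7428 and 6518 CPM in Myf5 and 1136 and 4379 in Ucp1 brown adipocytes. Mammary levels were 129 and 280 (Myf5 GFP-positive), 351 and 234 (Myf5 GFP-negative), 412 and 353 (Ucp1 GFP-positive) and 282 and 295 (Ucp1 GFP-negative). The mammary groups of the Myf5 line overlapped, and every mammary library was below every brown adipocyte library. Abhd5, its co-activator, moved far less: 161 and 141 CPM in Myf5 and 50.6 and 103 in Ucp1 brown adipocytes, against 30.0 to 56.6 over the 8 mammary libraries. The ranges of the 2 tissues overlap.

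Lipe was at 1321 and 1224 CPM in Myf5 and 160 and 348 in Ucp1 brown adipocytes. In mammary cells it was at 18.6 and 20.2 (Myf5 GFP-positive), 70.8 and 63.1 (Myf5 GFP-negative), 124 and 183 (Ucp1 GFP-positive) and 63.4 and 72.5 (Ucp1 GFP-negative). Both GFP-negative groups overlapped, while the GFP-positive group lay below them in the Myf5 line and above them in the Ucp1 line. The higher Ucp1 GFP-positive library was above the lower Ucp1 brown adipocyte library.

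Mgll was the exception to the tissue pattern. Its levels were 1528 and 1571 CPM in Myf5 and 1382 and 1263 in Ucp1 brown adipocytes, against 1373 and 1112 (Myf5 GFP-negative), 679 and 1022 (Ucp1 GFP-negative), 317 and 299 (Myf5 GFP-positive) and 478 and 586 (Ucp1 GFP-positive) in mammary cells. Every GFP-positive mammary library was below every GFP-negative one, and GFP-negative library 1 of the Myf5 line was within the brown adipocyte range.

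Lpl was at 7368 and 8039 CPM in Myf5 and 2238 and 4073 in Ucp1 brown adipocytes. In mammary cells it was at 564 and 447 (Myf5 GFP-positive), 801 and 414 (Myf5 GFP-negative), 807 and 1689 (Ucp1 GFP-positive) and 1018 and 955 (Ucp1 GFP-negative). The label groups overlapped within each line.

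Counting itself bears on these levels. The strand setting of the counting is not given in the sources used here, and 15.6% of the exonic bases of Lipe and 16.0% of those of Abhd5 are overlapped by an antisense gene (4732471J01Rik and A730085K08Rik). For Mgll (Gm26588) and Agpat2 (Egfl7) the overlap is 3.29% and 3.0%. Without strand, reads of the partners cannot be told apart there. Of the 31-base stretches of their transcripts, 18.8% for Abhd5 and 10.3% for Lipe also occur in transcripts of another gene, so these 2 levels are the least certain.

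The first question was whether myoepithelial cells with a Myf5 or Ucp1 history differ in these genes from their GFP-negative neighbours. In the Ucp1 line Dgat2 rose 7.27-fold in GFP-positive cells (log2 2.86, SE 0.728, edgeR adjusted p = 0.0302, higher in 2 of 2 libraries). No other member passed. The share of all 16953 tested genes that passed was 14.3%, with 0.277% higher and 14% lower. The median log2 change of the 10 genes was 0.37, against -0.69 for all genes tested. Both depended on single libraries: they were 0.22 and -1.73 without Ucp1 GFP-positive library 1 and 0.76 and -1.76 without library 2. Agpat2 (log2 1.30, SE 0.636, adjusted p = 0.203) and Lipe (log2 1.18, SE 0.437, adjusted p = 0.102) had values above 0 without passing, and 5 members (Dgat2, Agpat2, Lpin1, Lipe and Pnpla2) had both GFP-positive libraries above both GFP-negative ones, where 11.8% of all genes did. Mgll was the 1 member with both below (log2 -0.68, SE 0.362, adjusted p = 0.245), as were 48.1% of all genes.

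The Dgat2 call was not firm. It was lost without Ucp1 GFP-positive library 2 (log2 2.15, adjusted p = 0.072), without Ucp1 GFP-negative library 1 (2.94, adjusted p = 0.147) or without Ucp1 GFP-negative library 2 (2.77, adjusted p = 0.171), and in the edgeR fit to these 2 groups alone (2.94, adjusted p = 0.06). Limma-voom called Lipe (log2 1.18, adjusted p = 0.0456) in place of Dgat2 (2.82, adjusted p = 0.219), and DESeq2 called both. In the same libraries the adipocyte marker Adipoq was at 12.5 and 17.0 CPM in GFP-positive and 3.13 and 1.04 in GFP-negative cells, while Plin1 was at 0 and 4.88 against 0.871 and 0.611. The sum of the 8 general adipocyte markers, Adipoq and Plin1 among them, went the other way. It was 4133 to 5139 CPM in GFP-positive (5 of 8 counted in both libraries) and 5803 to 7115 in GFP-negative cells (8 of 8). The markers thus did not all move with their sum. Endothelial markers summed to 4442 to 6774 CPM against 4312 to 4374, and myoepithelial markers to 1283 to 2847 against 9367 to 10653. Luminal and milk markers (10 of 10) summed to 14485 to 15852 against 72569 to 80151 CPM. Fibroblast markers summed to 192 to 823 against 2927 to 3631 CPM. Pericyte markers summed to 661 to 877 against 1314 to 1329 CPM, and immune markers to 480 to 630 against 1172 to 1241. The part of these cells in the result was not tested.

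In the Myf5 line 0 members passed, and 0 of all genes (0% of those tested) did, although 1573 genes had an unadjusted edgeR p under 0.05. On simulated counts this test recovered only 1 of 100 genes changed 8-fold and 37 of 100 changed 32-fold. The lack of calls therefore does not show a lack of change. The smallest adjusted p of any gene was 0.212. Mgll had this value, with a log2 change of -2.01 (SE 0.374), and Lipe had log2 -1.79 (SE 0.445, adjusted p = 0.290). DESeq2 called both Mgll and Lipe lower, and limma-voom called Mgll. Dgat2, Lipe and Mgll were the 3 members with both GFP-positive libraries below both GFP-negative ones, as were 20.2% of all genes. The median of the 10 was -0.34, against -0.06 for all genes. In this line fibroblast markers (7 of 7 counted in both libraries of each group) summed to 11789 to 19205 CPM in GFP-positive and 558 to 893 in GFP-negative cells, myoepithelial markers to 2174 to 3456 against 7969 to 14776, and endothelial markers to 771 to 1076 against 3070 to 3411. General adipocyte markers summed to 2404 to 6411 CPM in GFP-positive (3 of 8 counted in both libraries) and 8329 to 15321 in GFP-negative cells (5 of 8), with Adipoq at 0 in both GFP-positive libraries and at 0 and 0.283 in GFP-negative ones. Luminal and milk markers (10 of 10) summed to 11591 to 25878 against 42052 to 74511 CPM. Pericyte markers summed to 2390 to 2666 against 387 to 618 CPM, and immune markers to 380 to 619 against 1291 to 1605. The part of these differences in the levels of Mgll and Lipe was not tested.

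**Figure D2:**
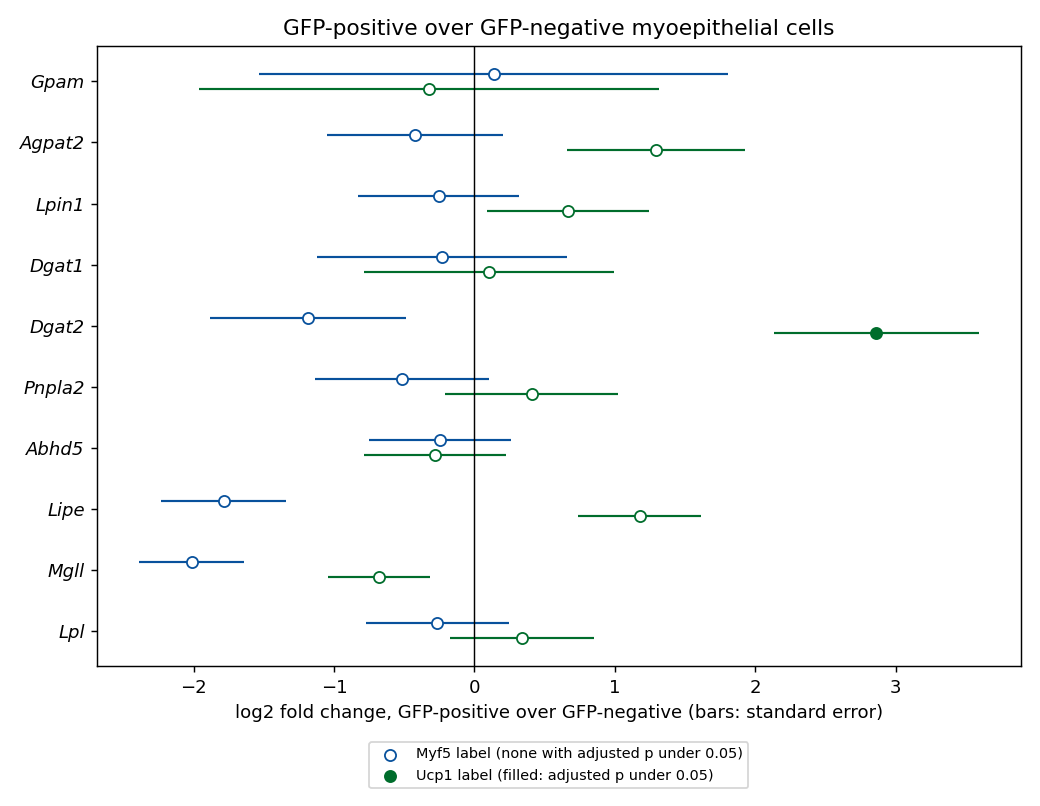
Log2 fold change of GFP-positive over GFP-negative myoepithelial cells for each gene in the Myf5 line (blue) and the Ucp1 line (green), with standard errors; filled points have an adjusted p under 0.05. Dgat2 in the Ucp1 line (2.86) is the only filled point, and all genes but Mgll and Abhd5 lie on opposite sides of 0 in the 2 lines.

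The difference between the label effects of the 2 lines was tested directly. It was called for Lipe (log2 2.96, SE 0.623, adjusted p = 0.0142) and Dgat2 (log2 4.05, SE 1.0, adjusted p = 0.0302), both more positive in the Ucp1 line. Over all genes 11% passed, 0.283% more positive and 10.7% more negative, and the median was 0.92 for the 10 genes and -0.58 for all. The median of all genes was -0.15 without Myf5 GFP-positive library 2 and -1.23 or -1.26 without Ucp1 GFP-positive library 1 or 2. Mgll, below 0 in both lines, did not pass (log2 1.34, SE 0.512, adjusted p = 0.147). DESeq2 (log2 1.38, adjusted p = 0.0197) and limma-voom (1.37, adjusted p = 0.0319) did call Mgll. The Lipe call was lost without Myf5 GFP-negative library 1 (adjusted p = 0.0559), Ucp1 GFP-negative library 1 (0.0885) or Ucp1 GFP-negative library 2 (0.0696). The Dgat2 call was lost without any 1 of the 4 Myf5 mammary libraries or the 2 Ucp1 GFP-negative libraries, with adjusted p from 0.0667 to 0.128, in the 4 mammary groups alone (log2 4.21, adjusted p = 0.0668) and with limma-voom (3.97, adjusted p = 0.450), and its value was 3.34 without Ucp1 GFP-positive library 2. With 2 libraries per group, the count of calls therefore ranged from 0 to 3 when 1 library was left out.

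The second question was how the same genes compare between myoepithelial cells and brown adipocytes. GFP-negative myoepithelial cells of both lines (n = 4) had lower levels than brown adipocytes (n = 4) for 9 of 10 genes, where 26.6% of all genes passed and 12% were lower. Dgat2 fell by 8.31 on the log2 scale (SE 0.660, edgeR adjusted p = 0.000109) and Agpat2 fell by 7.95 (SE 0.598, adjusted p = 9.2e-05). The log2 values were -4.87 for Gpam, -3.92 for Pnpla2, -3.86 for Dgat1, -3.08 for Lipe, -2.93 for Lpin1 and -2.67 for Lpl. Abhd5 fell by 1.10 at the edge of the threshold (adjusted p = 0.049, or 0.0771 without the filter on low counts). Mgll did not pass (log2 -0.48, SE 0.255, adjusted p = 0.200), although DESeq2 called it lower (log2 -0.71, adjusted p = 0.00873). The median was -3.47 for the 10 genes and 0.35 for all, and 8 members (all but Mgll and Abhd5) had every GFP-negative library below every brown adipocyte one, as did 18% of all genes. General adipocyte markers summed to 5803 to 15321 CPM in these GFP-negative libraries and 13100 to 26779 in brown adipocytes. Of these markers, Adipoq was at 0 to 3.13 CPM against 265 to 1572, and Plin1 at 0 to 0.871 against 113 to 1261. Plin1 and Adipoq were each at 0 in Myf5 GFP-negative library 1, which had the highest sum of the 4. Luminal and milk markers summed to 42052 to 80151 CPM in GFP-negative cells and 0.122 to 1.89 in brown adipocytes. Myoepithelial markers summed to 7969 to 14776 against 12.2 to 97.5. The part of adipocyte, luminal or other RNA in the mammary levels was not tested.

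In the Myf5 line GFP-positive myoepithelial cells were lower than brown adipocytes for all 10 genes, where 19.8% of all genes passed and 8.84% were lower. Dgat2 was 1032-fold lower (log2 -10.01, SE 1.0, adjusted p = 0.000757) and Agpat2 539-fold lower (log2 -9.07, SE 0.887, adjusted p = 0.000729). The log2 values were -7.47 for Gpam, -6.03 for Lipe, -5.09 for Pnpla2, -5.08 for Dgat1, -4.04 for Lpin1 and -3.93 for Lpl. The smallest falls were those of Mgll (log2 -2.33, SE 0.378, adjusted p = 0.00387) and Abhd5 (log2 -1.91). The median was -5.09, against 0.14 for all genes, and all 10 genes had both mammary libraries below both brown adipocyte libraries, as did 33.8% of all genes. The name myoepithelial is that of the sort. In these GFP-positive libraries fibroblast markers summed to 11789 to 19205 CPM, luminal and milk markers to 11591 to 25878 and myoepithelial markers to 2174 to 3456. Dcn was at 10858 and 3571 CPM, Acta2 at 1577 and 1546 and Krt14 at 3.98 and 54.4. What other cells contributed to these falls was not tested.

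In the Ucp1 line 4 of 10 genes were lower in GFP-positive myoepithelial cells, where 27.8% of all genes passed and 22.5% were lower. They were Agpat2 (log2 -5.95, SE 0.773, adjusted p = 0.0011), Dgat2 (log2 -4.94, SE 0.800, adjusted p = 0.00267), Pnpla2 (log2 -2.85, SE 0.660, adjusted p = 0.0132) and Mgll (log2 -1.31, SE 0.366, adjusted p = 0.0271). The values of the other 6 ran from log2 -2.78 for Dgat1 (adjusted p = 0.0550) to -0.73 for Lipe (SE 0.433, adjusted p = 0.235). The median was -1.93, against -0.69 for all genes, and 7 members (all but Lpin1, Lipe and Abhd5) had both mammary libraries below both brown adipocyte ones, as did 41.1% of all genes. The median of all genes was -1.50 or -1.47 without Ucp1 GFP-positive library 1 or 2, and with limma-voom it was -2.03, beside -1.97 for the 10 genes. None of the 4 calls was made in the fit to these 2 groups alone, which called 0 of all genes. In these GFP-positive libraries endothelial markers summed to 4442 to 6774 CPM, against 1509 to 3076 in brown adipocytes. Luminal and milk markers summed to 14485 to 15852 against 1.28 to 1.89, and myoepithelial markers to 1283 to 2847 against 69.2 to 97.5. What other cells contributed to these values was not tested.

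**Figure D3:**
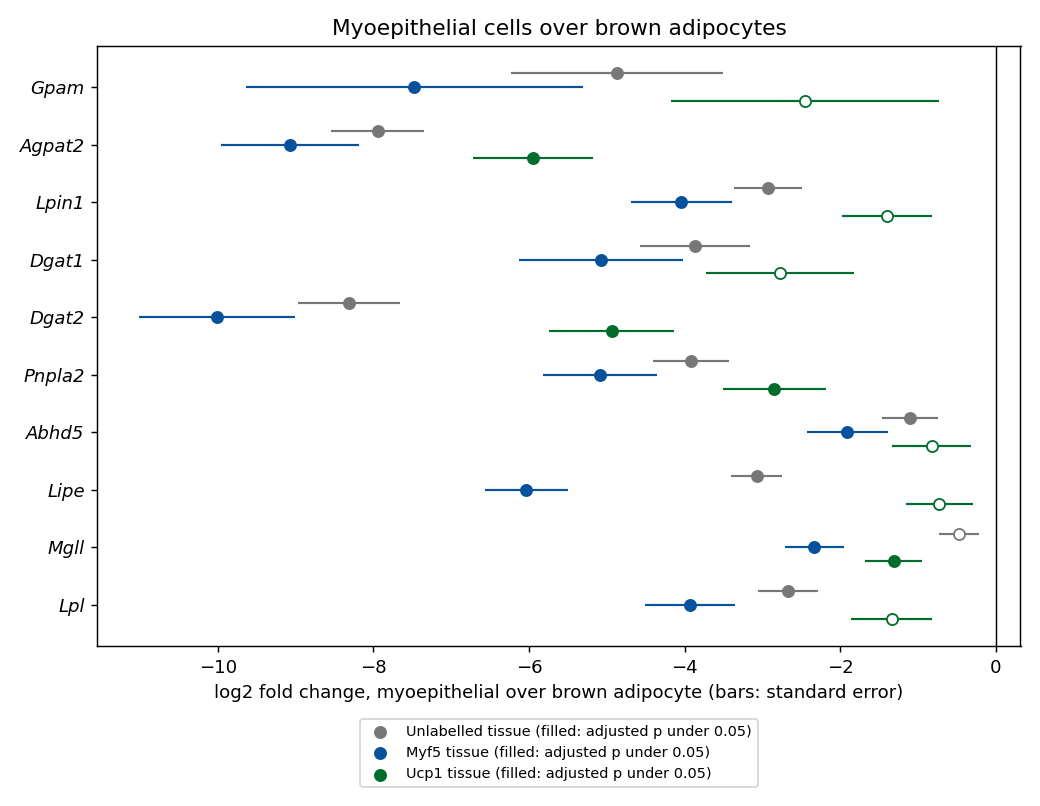
Log2 fold change of myoepithelial cells over brown adipocytes for each gene, with standard errors: GFP-negative cells of both lines (grey), GFP-positive cells of the Myf5 line (blue) and of the Ucp1 line (green); filled points have an adjusted p under 0.05. All points lie below 0, the Dgat2 and Agpat2 values lie furthest from it, and the Ucp1 line is nearest to 0 for every gene except Mgll.

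These calls depend on single libraries to different degrees. Some were lost on leaving out a library outside the comparison, in a fit whose 12 libraries share one estimate of spread. Where the Gpam call of the Myf5 line was lost in this way, its log2 value stayed at -7.47. Such a loss is a move across the threshold, not a change in the value. In the Myf5 line the Gpam call was lost without any 1 of 10 libraries (all but the 2 Ucp1 GFP-positive ones), the Abhd5 call without 6 libraries and the Dgat1 call without Myf5 GFP-positive library 1 (log2 -4.61, adjusted p = 0.0823). Without Myf5 GFP-positive library 2, Dgat1 moved to -5.74, Agpat2 to -9.72 and Pnpla2 to -5.76. In the Ucp1 line, leaving out brown adipocyte library 2 moved Dgat2 to -3.36, Agpat2 to -4.74 and Pnpla2 to -1.57 (no longer called, adjusted p = 0.0771), and leaving out brown adipocyte library 1 moved them to -5.68, -6.60 and -3.52. Without Ucp1 GFP-positive library 2, Dgat2 moved to -5.65. The Mgll call of that line was lost without any 1 of its 6 libraries. In GFP-negative cells, leaving out Ucp1 brown adipocyte library 2 moved Dgat2 to -7.52, Agpat2 to -7.33, Dgat1 to -3.26, Pnpla2 to -3.27 and Lpin1 to -2.32. There the Gpam call was lost without any 1 of the 8 libraries compared, and the Abhd5 call without any 1 of 9 libraries. The first tissue comparison shares its brown adipocyte libraries with the other 2, and the label and tissue comparisons share the GFP-positive mammary libraries.

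Whether the tissue gap differs between the lines was tested for GFP-positive cells, after the values had been seen. The gap was smaller in the Ucp1 line for Lipe (log2 difference 5.31, SE 0.648, adjusted p = 0.00199), Dgat2 (5.07, SE 1.02, adjusted p = 0.0109) and Lpl (2.59, SE 0.733, adjusted p = 0.0465). Of all genes 13.2% passed, 0.79% in this direction. All 10 members had positive values, with a median of 2.62 against -1.05 for all genes. The median of all genes was -0.46 without Myf5 GFP-positive library 2 and -1.90 or -1.87 without Ucp1 GFP-positive library 1 or 2. The Lpl call was lost without any 1 of 8 libraries (both Myf5 GFP-positive, both Ucp1 GFP-negative, both Myf5 brown adipocyte, Ucp1 GFP-positive library 2 and Ucp1 brown adipocyte library 1), and its value was lowest without Ucp1 GFP-positive library 2 (1.96, adjusted p = 0.105). With limma-voom Dgat2 was not called (5.37, adjusted p = 0.146), and in the groups compared alone neither Dgat2 (5.0, adjusted p = 0.0515) nor Lpl (2.52, adjusted p = 0.118) was. Dgat2 moved to 4.37 without Ucp1 GFP-positive library 2, to 4.33 without Ucp1 brown adipocyte library 1 and to 6.65 without library 2, and Lipe to 5.98 without the latter.

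The brown adipocyte end of that gap was also compared between the lines. The GFP-positive mammary end was not tested between the lines. Ucp1-line brown adipocytes were below Myf5-line brown adipocytes for Lipe (5.0-fold, log2 -2.32, SE 0.452, edgeR adjusted p = 0.0452), the 1 of 10 genes that passed, where 1.32% of all genes passed and 0.0236%, 4 genes in all, were lower. All 10 log2 values were below 0 (median -1.35, against 0.00 for all genes), and 9, all but Dgat2, had both Ucp1 libraries below both Myf5 ones, as did 28.3% of all genes. Of the other genes called for the gap, Dgat2 was at log2 -0.70 (SE 0.681, adjusted p = 0.786) and Lpl at -1.29 (SE 0.518, adjusted p = 0.323). Gpam was at log2 -3.37 (SE 1.79, adjusted p = 0.486) and Mgll at -0.23 (SE 0.361, adjusted p = 0.926). The Lipe call was lost without any 1 of the 4 Myf5 mammary, the 2 Ucp1 GFP-negative and the 2 Myf5 brown adipocyte libraries or without Ucp1 brown adipocyte library 1 (log2 -1.86, adjusted p = 0.265), without the filter on low counts (-2.26, adjusted p = 0.0524) and in the groups compared alone (-2.22, adjusted p = 0.0652). Without Ucp1 brown adipocyte library 2 the Lipe value was -2.99. Without any 1 of the mammary libraries that cost the call, it ran only from -2.32 to -2.26. In these libraries endothelial markers (6 of 6 counted in both libraries of each group) summed to 1509 to 3076 CPM in the Ucp1 line and 12 to 316 in the Myf5 line. Brown adipocyte markers (7 of 7) summed to 2673 to 8283 against 19926 to 24861, and general adipocyte markers (8 of 8) to 13100 to 17544 against 18925 to 26779. No defining adipocyte marker was at 0 in either. The part of these cells in the result was not tested.

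Within a library, the balance of the 10 genes can be read as the share each takes of their summed CPM per kilobase of exonic sequence. In GFP-negative myoepithelial cells Mgll took 55.9% ± 3.19 (SD, n = 2) in the Myf5 line and 41.0% ± 6.91 in the Ucp1 line. It took 30.3% ± 5.84 and 23.6% ± 0.622 in the GFP-positive cells of the 2 lines, and 3.98% ± 0.178 and 10.9% ± 8.43 in their brown adipocytes. Agpat2 did the opposite, at 35.2% ± 2.99 and 30.5% ± 3.19 in brown adipocytes and 1.59% to 3.99% as the mean of each mammary group. Pnpla2 kept a mean share of 21.9% to 32.4% in all 6 groups.

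**Figure D4:**
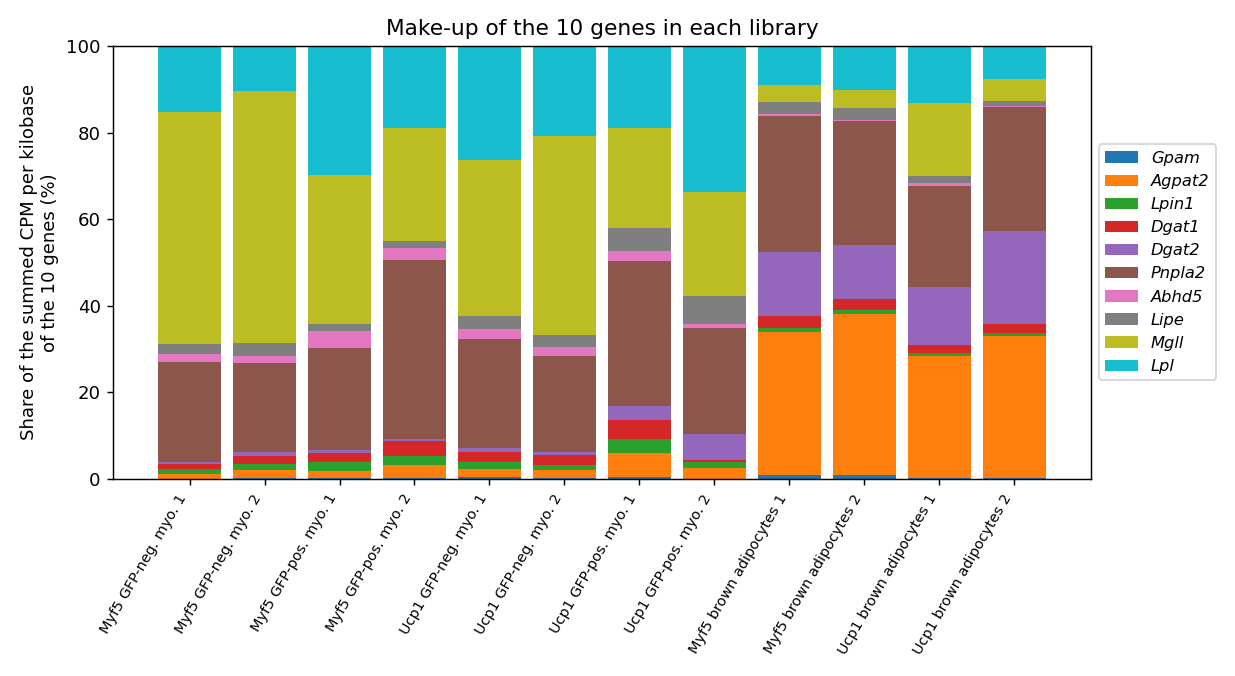
Share of the summed CPM per kilobase of the 10 genes that each gene takes, in percent, one bar per library. Mgll is the widest band in the GFP-negative myoepithelial libraries, and Agpat2, Pnpla2 and Dgat2 make up most of the brown adipocyte bars.

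The order of genes near the top depends on the length used. By all exonic bases Mgll led in both GFP-negative groups, Pnpla2 in both GFP-positive mammary groups and Agpat2 in brown adipocytes. By the longest principal transcript, Lpl led in 3 mammary groups, with Mgll still first in Myf5 GFP-negative cells, and Pnpla2 led in brown adipocytes. Gpam was last in each mammary group by both lengths.

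Ratios within a library do not depend on its depth. Dgat2 over Dgat1, per length, was 0.114 to 0.364 in the 6 mammary libraries outside the Ucp1 GFP-positive group, 0.720 and 14.3 in that group, and 4.72 to 10.0 in brown adipocytes. Dgat1 thus exceeded Dgat2 in 7 of 8 mammary libraries and Dgat2 exceeded Dgat1 in 4 of 4 brown adipocyte libraries. The 5 esterification genes summed to 0.0471 to 0.260 of the 4 intracellular lipolysis genes in mammary libraries and to 1.05 to 1.63 in brown adipocytes, with no overlap. The highest mammary values, 0.260 and 0.185, were those of the Ucp1 GFP-positive pair. Pnpla2 over Mgll was 0.355 to 0.697 in GFP-negative, 0.686 to 1.58 in GFP-positive mammary, 1.38 and 5.83 in Ucp1 and 6.98 to 8.17 in Myf5 brown adipocyte libraries. Pnpla2 over its co-activator Abhd5 was 6.09 to 23.2 in mammary and 44.3 to 91.5 in brown adipocyte libraries. These are ratios of RNA and were not tested.

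**Figure D5:**
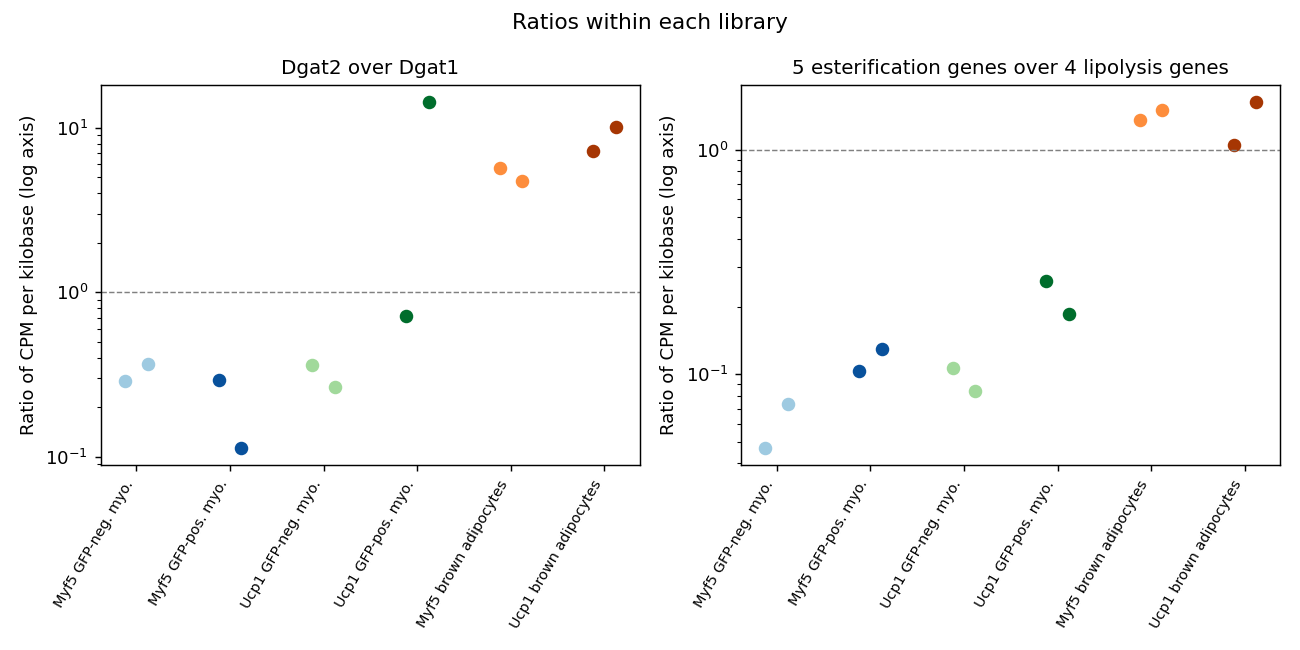
Ratios of CPM per kilobase within each library on a log axis, with a dashed line at 1: Dgat2 over Dgat1 (left) and the sum of 5 esterification genes over the sum of 4 intracellular lipolysis genes (right). All 4 brown adipocyte libraries lie above 1 in both panels, and the Dgat2 ratio of the Ucp1 GFP-positive myoepithelial pair is split between 0.720 and 14.3.

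The wider pathway was read from 7 lists of acyl-CoA synthetases, glycerol handling genes, other acyltransferases and lipins, lipolysis regulators, other neutral lipases, Lpl partners and droplet assembly genes (55 genes, 54 found and tested). In GFP-negative cells against brown adipocytes 30 of 54 were lower and 3 higher, where 26.6% of all genes passed and 12% were lower. The median of the 54 was -2.43, against 0.35 for all genes. Of the 12 lipolysis regulators, 10 were lower. Gpd1, which makes the glycerol-3-phosphate backbone, was at 20.2 CPM ± 9.42 (SD, n = 4) against 16074 ± 11148 (log2 -9.51, SE 0.784, edgeR adjusted p = 0.000130). Also lower were the Pnpla2 inhibitor G0s2 (log2 -3.58), the droplet protein gene Cidec (-10.54), the acyl-CoA synthetase gene Acsl5 (-4.01) and Gpd2 (-4.54). Angptl8, a regulator of Lpl, was at 0.144 CPM ± 0.166 against 253 ± 170.

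In the Myf5 line 27 of 54 pathway genes were lower and 2 higher in GFP-positive myoepithelial cells than in brown adipocytes. Of all genes 19.8% passed and 8.84% were lower. The median was -3.41 for the 54 and 0.14 for all genes. The lower pathway genes included Gpd1 (log2 -11.71), Cidec (-10.58), Acsl1 (-6.08), Gpd2 (-5.21), the droplet coat gene Plin2 (-4.05) and G0s2 (-3.80). In the Ucp1 line 23 were lower and 2 higher, where 27.8% of all genes passed and 22.5% were lower. The median was -3.08 for the 54 and -0.69 for all genes, and the latter was -2.03 with limma-voom. Gpd1 had a log2 value of -7.09 and G0s2 of -3.70. Angptl8, Gpat3 and Lclat1 had 0 counts in both Ucp1 GFP-positive myoepithelial libraries, against 311 CPM ± 246 (SD, n = 2), 13.2 ± 8.46 and 6.04 ± 4.22 in brown adipocytes. Vldlr, a lipoprotein receptor, was at 0.0305 ± 0.00883 against 21.6 ± 17.9.

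For the label, 0 of 54 pathway genes rose and 6 fell in the Ucp1 line, with 0 in either direction in the Myf5 line. The 6 were Vldlr (0.0305 CPM ± 0.00883 against 10.5 ± 0.346, SD, n = 2), the acyltransferase genes Lclat1 (0 against 13.8 ± 0.156), Gpat3 (0 against 3.92 ± 2.78) and Agpat4 (0.184 ± 0.260 against 22.4 ± 6.2), the glycerol channel gene Aqp3 (0 against 5.04 ± 0.990) and G0s2 (14.1 ± 0.865 against 52.1 ± 4.07, log2 -1.88, adjusted p = 0.0342). Dgat2 was thus the 1 gene called higher among the 10 members and the 54 pathway genes. These falls stood in the libraries with the fewest genes counted, where 14% of all genes were called lower. In the Myf5 line the most abundant pathway genes were 2 Lpl partners of the capillary wall, Cd36 (log2 -1.66, SE 0.417, adjusted p = 0.290) and Gpihbp1 (log2 -2.29, SE 1.02, adjusted p = 0.538), neither of which passed.

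The label difference between the lines was called for 7 of 54 pathway genes, 6 of them more negative in the Ucp1 line, shares near the 11% and 10.7% of all genes. Angptl4, an inhibitor of Lpl, was the 1 gene more positive in the Ucp1 line (log2 2.20, SE 0.587, adjusted p = 0.0412). G0s2 (log2 -3.42), Vldlr (-9.47), Agpat4 (-8.57), Lclat1 and Gpat3 were among those 6. G0s2 and Angptl4 thus differed between the lines in opposite directions. For the tissue difference 2 of 54 were more positive in the Ucp1 line, Gpd1 (4.62, SE 1.14, adjusted p = 0.0267) and Acsl1 (4.17, SE 0.889, adjusted p = 0.0138), and 4 more negative (Agpat4, Vldlr, Lclat1 and Gpat3), where 0.79% and 12.4% of all genes were. Between the brown adipocytes of the 2 lines 0 of 54 were called, where 1.32% of all genes were. The 2 most abundant, Gpd1 (log2 -1.73, SE 0.790, adjusted p = 0.396) and Plin2 (-0.19, SE 0.588, adjusted p = 1.0), did not pass.

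Finally, the gene whose log2 level tracked each member most closely over the 12 libraries was found among 9012 protein-coding genes that average 10 CPM or more. The points fall in 2 tissue clusters, so these r values mostly describe the tissue contrast and carry no test. Dgat2 was most like Adipoq (r = 0.994), Agpat2 like Gpd1 (0.995), Lpl like Scd1 (0.985), Gpam like Pde3b (0.971), Lpin1 like Bcat2 (0.991) and Pnpla2 like Idh3b (0.995). Dgat1 was most like Tmem70 (0.984), Lipe like Coq6 (0.969) and Abhd5 like Poldip2 (0.960). Mgll had the lowest closest match, Psmg1 (0.888). Among the members themselves, r ran from 0.779 to 0.979 between pairs without Mgll and from 0.567 (Gpam) to 0.718 (Lipe) for pairs with it.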

How the data were processed

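Bulk RNA of 12 sorted libraries (6 groups of 2) was measured by SMART-Seq v4 amplification and Illumina sequencing, per the labels' protocols. The authors deposited raw read counts per Ensembl gene, one file per library, and all per-library columns were used (0 left unused). The submitters' processing notes name TopHat, HTSeq, DESeq2 and mm10. Versions, the annotation release and the strand setting were not given in the sources used here. Without strand, reads of overlapping antisense genes add to a gene's count.

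Counts were joined into 38924 genes, and 37607 received a symbol from GENCODE M21 (mm10). Genes passing filterByExpr with a minimum count of 10 (16953) were tested with the edgeR quasi-likelihood test (edgeR 4.0.16, R 4.3.3) with TMM factors, in 1 fit of 12 libraries and 6 group means that share one estimate of spread. P-values were Benjamini-Hochberg adjusted over all genes tested, with a threshold of 0.05. Standard errors were taken as |log2 fold change| / √F. CPM use TMM-scaled totals, CPM per kilobase divides by all exonic bases, and 3 counts is the limit that a count of 0 allows (counting error only). On simulated counts with the spread of these libraries, the test of the Myf5 label comparison made no false call but missed most of the genes that had been changed. It recovered 1 of 100 genes changed 8-fold and 37 of 100 changed 32-fold. Totals of 11027738 to 32956480 counts still leave low genes such as Gpam with 0 to 404 counts in mammary libraries.

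There were 7 planned comparisons and 1 added after values were seen (the tissue difference). All 10 members are named. Of the pathway lists, called genes are named, up to 6 per comparison by smallest adjusted p, or the 2 most abundant where none was called, and for each member the gene with the highest r in log2(CPM + 1). The members and lists were chosen with earlier results of these data known. Alternatives were RLE factors, no filter, DESeq2 1.42.0, limma-voom (limma 3.58.1), a replicate block, the compared groups alone, removal of milk and mitochondrial genes, omission of the Ucp1 GFP-positive pair, and omission of each library. Python 3.11.15, pandas 2.3.3 and matplotlib 3.10.9 were used for the rest.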

Additional observations from a re-analysis of the deposited data

Results flagged for a closer look

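The following 5 results were marked because the same contrast differed between the 2 driver lines by a direct test in the edgeR fit. The GFP effect in myoepithelial cells was more positive in the Ucp1 than in the Myf5 line for Lipe (log2 difference 2.96) and Dgat2 (4.05). The gap between GFP-positive myoepithelial cells and brown adipocytes was smaller in the Ucp1 line for Lipe (5.31), Dgat2 (5.07) and Lpl (2.59). Both sets rest on the same Ucp1 GFP-positive myoepithelial libraries, the pair with the fewest genes counted, so they are not independent of each other.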

How the results depend on the processing

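Of 1570 alternative values of the 10 genes in 8 comparisons, 1415 kept direction and side of the threshold, 91 lost and 34 gained a call, and 30 reversed, none of them a called value. The count of called members changed as follows. In the Myf5 label comparison it went from 0 to 2 with DESeq2 and 1 with limma-voom. In the Ucp1 label comparison it went from 1 to 2 with DESeq2 and to 0 in the groups compared alone. In the label difference it went from 2 to 1 in the groups compared alone, in the Ucp1 tissue comparison from 4 to 0 there, and in the tissue difference from 3 to 1 there and to 5 with DESeq2. Between brown adipocytes it went from 1 to 0 without the filter and to 2 without the Ucp1 GFP-positive pair, and in the groups compared alone the 1 gene called was Gpam in place of Lipe. DESeq2 and limma-voom each added Mgll in the label difference, and Dgat1 and Lpl in the Ucp1 tissue comparison. Omitting 1 library gave ranges of 0 to 0 (Myf5 label), 0 to 2 (Ucp1 label), 0 to 3 (label difference), 7 to 10 (Myf5 tissue), 2 to 5 (Ucp1 tissue), 7 to 9 (GFP-negative tissue), 0 to 2 (brown adipocytes) and 2 to 6 (tissue difference). The cause was not tested.

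Same-numbered libraries deviated together at r = 0.502 in the Myf5 and 0.0755 in the Ucp1 mammary pair and at -0.122 between brown adipocytes. With 2 numbers and no label of shared animals, the numbers are not shown to pair samples. With the replicate block the called members were 0 (Ucp1 label), 1 (label difference) and 0 (brown adipocytes), and the other counts stayed within 1.5 times. Under it the calls of Gpam (Myf5 tissue, adjusted p = 0.0593), Abhd5 (GFP-negative tissue, 0.0654) and Lpl (tissue difference, 0.0685) were also lost, and Agpat2 gained one (tissue difference, 0.0474). With the brown adipocyte numbers crossed, 1 was called.

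The reversed values had not been called, and some were near 0 or rested on few counts. Neither held for Lpl in the label difference (log2 0.60) and Dgat2 between brown adipocytes (-0.70). For the Myf5 label, omitting 1 library gave log2 -0.89 to 0.21 (Dgat1), -0.46 to 1.15 (Gpam), -1.07 to 0.0045 (Agpat2), -0.49 to 0.043 (Abhd5) and -0.66 to 0.28 (Lpl). For the Ucp1 label it gave -2.20 to 0.94 (Dgat1), -10.66 to 0.67 (Gpam), -0.82 to 0.093 (Abhd5) and -0.30 to 0.76 (Lpl), and Dgat1 was -0.91 with limma-voom and -0.61 with the block. For the label difference it gave -1.97 to 1.17 (Dgat1), -10.80 to 0.53 (Gpam), -0.57 to 0.34 (Abhd5) and -0.037 to 1.03 (Lpl). There Dgat1 was -0.72 with limma-voom and -0.29 with the block, and Abhd5 was 0.026 with RLE factors, 0.072 without the filter, 0.027 with DESeq2, 0.12 in the groups alone and 0.089 without milk and mitochondrial genes. Dgat2 between brown adipocytes ranged from -2.28 to 0.038 and Gpam in the tissue difference from -5.32 to 6.25.

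RLE factors moved the median of all genes from -0.69 to -0.51 (Ucp1 label), from 0.35 to 0.11 (GFP-negative tissue) and from 0.14 to 0 (Myf5 tissue). Larger moves were to -1.88 with limma-voom and -1.92 with the replicate block (Ucp1 label), to -1.43 and -1.39 (label difference), and to -0.089 with DESeq2 (GFP-negative tissue). Counts of all genes called across alternatives other than omitted libraries ran from 0 to 793 (Myf5 label), 1601 to 5146 (Ucp1 label), 1187 to 3181 (label difference), 2635 to 6199 (Myf5 tissue), 0 to 6597 (Ucp1 tissue), 3863 to 8226 (GFP-negative tissue), 42 to 1463 (brown adipocytes) and 1083 to 4162 (tissue difference).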
